A study of Mus musculus with 14 samples.

Results

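The transcription factors that keep naive T cells at rest were measured in sorted spleen T cells of mice with chronic myelogenous leukemia (CML). The 6 members, Tcf7, Lef1, Bach2, Satb1, Foxo1 and Foxp1, were taken as the rows of the counts table with exactly these symbols. They are 6 of 24091 genes in the table, and all 6 passed the filter on low counts that left 12248 genes to be tested. CP CML (chronic phase) T cells came from 8 Mir142+/+BCR-ABL mice, and BC CML (blast crisis) T cells from 6 Mir142−/−BCR-ABL mice, with 1 library per mouse. Both groups carried the SCLtTA/BCR-ABL transgenes, in which regulatory sequence of the stem cell gene Scl drives the tetracycline-responsive activator, and BCR-ABL was induced by withdrawing tetracycline for 3 weeks. The mice were on a CD45.2 C57Bl/6j background and 6 to 10 weeks old, and 200000 sorted T cells were used per sample. Mir142 is deleted in every cell of the knockout mice, so the design does not separate the deletion in T cells from the disease phase, and mice without leukemia were not analysed here. The mouse names share 1 prefix in CP CML and another in BC CML, so any difference of cohort cannot be told apart from genotype.

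A naive T cell is kept out of the cell cycle by an active program of transcription. Tcf7 (the gene of TCF-1) and Lef1 encode HMG-box factors of the Wnt pathway that hold T cell identity and the naive and memory-precursor state. Bach2 encodes a repressor that competes with AP-1 factors at effector genes, and Satb1 a chromatin organizer of developing and resting T cells. Foxo1 encodes the forkhead factor that sustains Klf2, Ccr7 and Il7r and is inactivated by AKT, and Foxp1 a forkhead factor that restrains the response to IL-7 and holds quiescence. Effector differentiation is known to lower Tcf7 and Lef1 and to raise Id2, Tbx21 and Prdm1.

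Each library held between 15703702 and 19914531 reads in genes. Mir142 had between 302 and 650 reads in the CP CML libraries and 0 in all 6 BC CML libraries, at least 167.2-fold lower when 3 reads per library are taken as the limit. All 10 T cell marker genes were detected in every library, and their summed level was 3803 to 4413 CPM (reads per 1000000 reads of the library, scaled by edgeR's TMM factors) in CP CML and 4740 to 5186 CPM in BC CML. Of these genes 5 were higher in BC CML, 1 was lower and 4 did not pass the test used below. Thy1 (means of 775.2 and 1229 CPM) and Cd3g (452 and 682.6 CPM) rose most, so the sum is not a plain measure of T cell content. The study used mice of both sexes, and in all 14 libraries Xist was between 1769 and 2398 CPM and the Y-linked genes Ddx3y, Eif2s3y, Kdm5d and Uty were at 0, as in females. Transcripts of other cells also differed. Summed myeloid markers (15 genes, of which 13 rose) were 74.5 to 729.6 CPM in CP CML and 855.5 to 2245 CPM in BC CML, NK cell markers (6 genes, Eomes among them, of which Klra4 was at 0 in every library) 127.0 to 163.5 and 409.5 to 551.4 CPM, B cell markers (7 genes) 56.5 to 168.5 and 99.2 to 495.6 CPM, and erythroid markers (7 genes) 17.6 to 69.1 and 53.5 to 83.4 CPM. The part of these cells in the results below was not tested beyond a fit with the myeloid markers as a covariate. Because the summed myeloid level did not overlap between groups, that covariate runs with group, and the fit cannot fully separate the 2. Its SEs are larger (0.102 against 0.0648 for Tcf7), so a call lost there need not mean a smaller difference. The NK gene Klra8 was between 0 and 0.306 CPM in CP CML, with a median of 16.7 and a highest value of 20.3 CPM in BC CML. Ncr1, Klre1 and Klrb1c, also NK genes, rose by less, 2.01, 2.00 and 1.56 on the log2 scale. Whether both groups carry the same alleles of the NK receptor genes was not tested, and an allele difference cannot be told apart from more NK transcript for Klra8.

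The products of the deleted gene are shown first, with their seeds (bases 2 to 8) in capitals, because a matching site in a 3′UTR is what would place a member among their possible direct targets. Both come from RefSeq (GRCm38.p6), from chr11:87756867-87756887 and chr11:87756903-87756925 on the plus strand.
miR-142a-5p: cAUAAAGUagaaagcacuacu
miR-142a-3p: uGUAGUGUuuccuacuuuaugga

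The longest annotated 3′UTR of each member (GENCODE vM21, mm10) was searched on the transcript's strand for the 8mer, 7mer-m8 and 7mer-A1 sites of both arms, which are ACTTTATA, ACTTTAT and CTTTATA for 5p and ACACTACA, ACACTAC and CACTACA for 3p. The shorter sites lie within the 8mer and were counted only outside it. The 3′UTRs of Tcf7 (1512 bases), Lef1 (1287 bases) and Satb1 (3711 bases) held none. Bach2 (5812 bases) held a 3p 8mer and a 5p 7mer-m8, Foxo1 (6240 bases) a 3p 7mer-A1, and Foxp1 (4752 bases) a 5p 7mer-m8. These 4 sites follow in 30 bases of the transcript strand with the match in capitals, at chr4:32580417-32580446 (plus), chr4:32584153-32584182 (plus), chr3:52347240-52347269 (plus) and chr6:98928218-98928247 (minus).
Bach2 3p 8mer: gaatttggtgcACACTACAgcagtcttagc
Bach2 5p 7mer-m8: cttgttttaatACTTTATggttgccactga
Foxo1 3p 7mer-A1: agtgccaaactCACTACAccatgtaattgc
Foxp1 5p 7mer-m8: ttttcttttatACTTTATctgatgaagcca

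Matches of this kind are common. Of the 11509 tested genes with a 3′UTR, 30.7% held at least 1 site, and 49.4% of the 5411 genes whose 3′UTR was at least as long as that of Lef1 did, against 3 of the 6 members. The 3p 8mer was rarer, in 3.04% of genes, and Bach2 was its only holder among the members. The median log2 fold change (BC CML minus CP CML throughout) was 0.23 over the 350 genes with a 3p 8mer and −0.03 over the 7977 genes with no site. A match is a description of letters, not of binding.

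Tcf7 and Lef1 were lower in every BC CML mouse than in any CP CML mouse. Tcf7, on chr11:52252283-52283014 (mm10, minus strand), ranged from 1793 to 2273 CPM in CP CML with a median of 1939, and from 1058 to 1394 CPM in BC CML with a median of 1257. The lowest CP CML mouse (CP CML 5) therefore stood above the highest BC CML mouse (BC CML 3). The mean was 1971 ± 143.8 CPM (SD, n = 8) for CP CML and 1239 ± 132.7 CPM (SD, n = 6) for BC CML. The log2 fold change was −0.67 ± 0.06 (SE) or a fall of 37.2% (adjusted p = 7.1e-08, edgeR's quasi-likelihood test over all genes).

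Lef1, on chr3:131110297-131224357 (plus strand), ranged from 335.9 to 424.6 CPM in CP CML (median 411.2) and from 197.8 to 290.7 CPM in BC CML (median 241.7). Here too the groups did not overlap. The means were 399.3 ± 29.9 (SD, n = 8) and 245.9 ± 34.1 CPM (SD, n = 6), a log2 fold change of −0.70 ± 0.08 and a fall of 38.4% (adjusted p = 4.6e-07, same test). Among all tested genes, 6.36% had a lower log2 fold change than Tcf7 and 5.85% a lower one than Lef1. With the myeloid marker level of each library as a covariate, Tcf7 was at −0.68 and Lef1 at −0.70, and both were still called. As that level runs with group, this fit does not fully separate myeloid content from genotype.

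Bach2, on chr4:32238950-32586108 (plus strand), fell by a smaller amount and with overlap. It ranged from 170.9 to 246.7 CPM in CP CML (median 214.6) and from 143.1 to 218.3 CPM in BC CML (median 175.4). Of the 6 BC CML mice, 5 were below the CP CML median and BC CML 6 above it, but only BC CML 2 was below every CP CML mouse. The mean went from 213.7 ± 22.5 (SD, n = 8) to 177.7 ± 24.0 CPM (SD, n = 6), a log2 fold change of −0.27 ± 0.08 (adjusted p = 0.0108, same test). Bach2 is among the longer genes, at 10.2 kb. A long-gene score of each library (the median log2 CPM of the 986 tested genes of 8 kb or more minus that of the 2273 of 1 to 2 kb) was 2.33 at the median of CP CML (highest 2.39) and 2.45 at the median of BC CML (lowest 2.32). With that score as a covariate the Bach2 difference was −0.12 ± 0.11 (adjusted p = 0.375), so its call does not hold there. The median score was higher in BC CML, where Bach2 was lower. Within groups, r of Bach2 with the score was −0.61 in CP CML and −0.40 in BC CML (exact permutation p = 0.0992 and 0.435). Whether gene length has a part in the Bach2 difference was not tested. It was called, and further from 0, with the T cell marker scaling described below (−0.54, adjusted p = 0.000237) and with the myeloid covariate (−0.36, adjusted p = 0.0328). Reads of Bach2os, an antisense gene inside Bach2 that was too low to be tested, cannot be told apart from those of Bach2 where both are exonic, since the strand setting of the counting is not given in the sources used here.

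Satb1, on chr17:51736187-51833290 (minus strand), was the only member higher in BC CML, and by little. It ranged from 838.8 to 977.2 CPM in CP CML (median 865.7) and from 834.1 to 1060 CPM in BC CML (median 969.5). The spread was wider in BC CML: 2 mice, BC CML 3 and BC CML 6, were above every CP CML mouse and BC CML 2 was below every one. The means were 880.5 ± 46.4 (SD, n = 8) and 967.6 ± 82.7 CPM (SD, n = 6), a log2 fold change of 0.14 ± 0.05 or 9.9% (adjusted p = 0.0278, same test). The call was lost with the myeloid covariate (0.10, adjusted p = 0.37) and with upper-quartile factors (0.10, adjusted p = 0.0952), while with the long-gene score as a covariate it was called at 0.22 (adjusted p = 0.00939). The direction depends on the scaling. When libraries were scaled to the 10 T cell marker genes, which moved the median of all genes to −0.28, Satb1 was at −0.14 (adjusted p = 0.0677), and the call was also lost without any 1 of CP CML 3, BC CML 3, BC CML 5 or BC CML 6, at 0.11 to 0.13.

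The forkhead members stayed within the spread between mice. Foxo1, on chr3:52268337-52350109 (plus strand), ranged from 335.0 to 398.3 CPM in CP CML (median 378.8) and from 335.0 to 406.2 CPM in BC CML (median 360.6). Its means were 374.5 ± 18.8 (SD, n = 8) and 361.1 ± 25.5 CPM (SD, n = 6), with a log2 fold change of −0.05 and a 95% interval of −0.14 to 0.04 (adjusted p = 0.327, same test). Foxp1, on chr6:98925342-99520993 (minus strand), ranged from 254.3 to 333.8 CPM (median 307.9) and from 253.9 to 320.3 CPM (median 283.4). Its log2 fold change was −0.08 with an interval of −0.20 to 0.05 (adjusted p = 0.300, same test). Both intervals exclude a change of the size seen for Tcf7 and Lef1 under this scaling. With the T cell marker scaling, both were called lower, at −0.32 and −0.35.

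**Figure D1:**
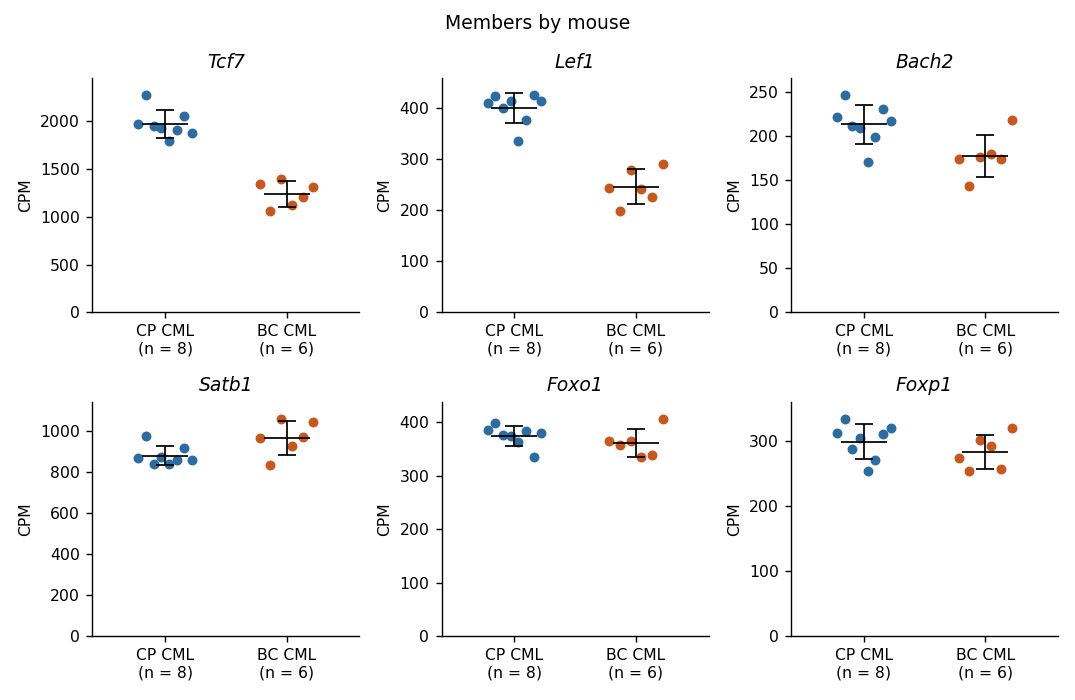
CPM of each member in each mouse (y axis from 0; points are mice, CP CML in blue and BC CML in orange, black lines the mean ± SD). Tcf7 and Lef1 separate the groups with no overlap, and the other 4 members overlap.

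The counts of members called are to be read against a comparison in which most genes moved. The test called 65.2% of all genes tested, with 32.7% lower and 32.6% higher in BC CML, and it called 4 of the 6 members, 3 lower and 1 higher. With the T cell marker scaling 5 members were lower and 0 higher, and of all genes 7126 were lower and 2244 higher. Under the reported fit the share of members called is near that of all genes. BC CML lay below CP CML with no overlap for 17.6% of genes (2 of the 6 members) and above it for 19.3% (0 of the 6). In bulk RNA, fewer naive cells among the sorted cells and less RNA of these genes per cell cannot be told apart.

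**Figure D2:**
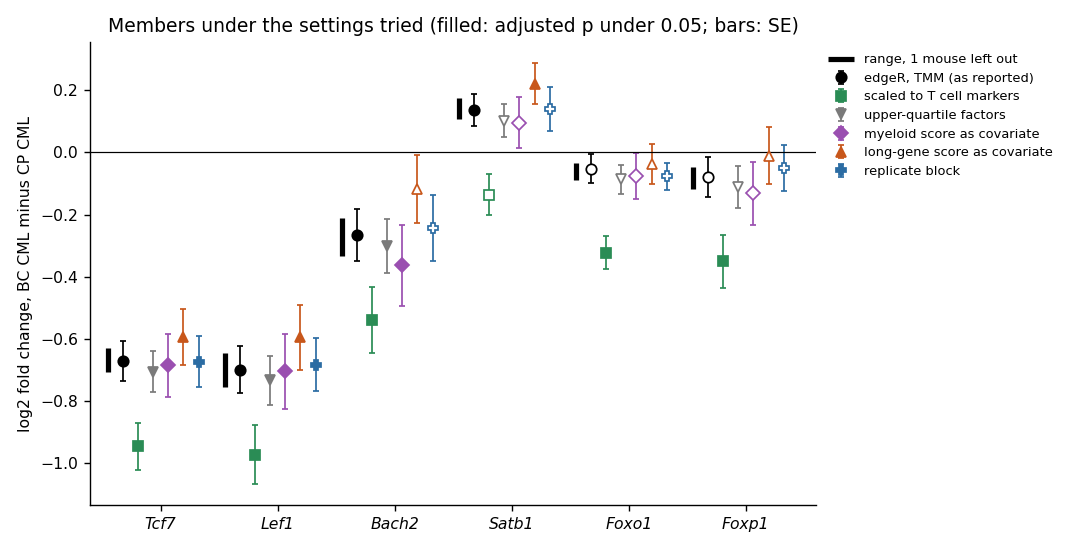
Log2 fold change of each member (y axis, BC CML minus CP CML) under the reported fit and 5 others, with SE bars, filled symbols for an adjusted p below 0.05 and a thick black bar for the range when 1 mouse is left out. Tcf7 and Lef1 stay between −0.97 and −0.59, while Satb1 crosses 0 with the T cell marker scaling.

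Set against each other per length of gene, the members covered a wide range. In CP CML, Tcf7 stood at 717.3 ± 52.3 CPM per kilobase (SD, n = 8), followed by Satb1 at 130.0 ± 6.8, Foxo1 at 67.5 ± 3.4, Lef1 at 45.3 ± 3.4, Foxp1 at 27.9 ± 2.5 and Bach2 at 21.0 ± 2.2. Ranges over mice of neighbours in this order did not overlap except for Foxp1 and Bach2. In BC CML, Tcf7 was at 450.7 ± 48.3 and Satb1 at 142.8 ± 12.2 CPM per kilobase (SD, n = 6). The order of the means was the same, but Lef1 (27.9 ± 3.9) now overlapped with Foxp1 (26.4 ± 2.4), and Foxp1 no longer overlapped with Bach2 (17.5 ± 2.4). The lengths are those given with the counts and combine all exons of a gene.

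**Figure D3:**
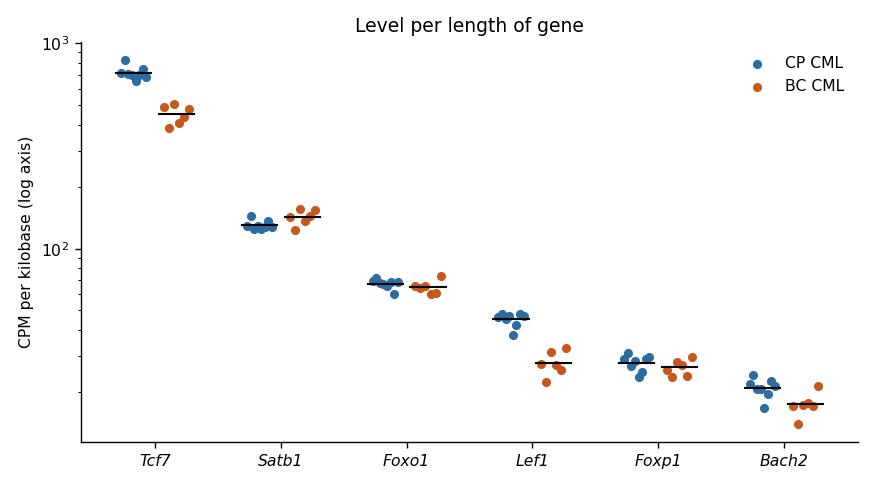
CPM per kilobase of gene length (log axis) in each mouse, ordered by the CP CML mean, with CP CML in blue, BC CML in orange and black lines for the means. Lef1 falls in BC CML into the range of Foxp1, and Tcf7 remains the highest member in both groups.

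Whether members changed by different amounts was tested on the ratio of their reads within each mouse, in which the scaling of the library cancels. Of the 15 pairs, 13 differed between the groups (exact permutation test, two-sided, on the 3003 ways to split the mice, adjusted over the 15 pairs, which were set with the members' changes known). The ratio of the HMG-box pair did not pass the test: the log2 ratio of Tcf7 to Lef1 was 2.30 ± 0.09 (SD, n = 8) for CP CML and 2.34 ± 0.12 (SD, n = 6) for BC CML, a difference of 0.03 (exact p = 0.549, adjusted p = 0.589). Nor did the forkhead pair, with a Foxo1 to Foxp1 log2 ratio of 0.33 ± 0.14 and 0.35 ± 0.11, a difference of 0.02 (exact p = 0.731).

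Tcf7 and Lef1 each fell relative to every other member, with no overlap between groups in any of these 8 ratios (exact p = 0.000666 in each, the smallest the design allows, and adjusted p = 0.00125). The widest was Lef1 to Satb1, which went from −1.14 ± 0.09 in CP CML to −1.98 ± 0.10 in BC CML on the log2 scale, 1.79-fold lower. Tcf7 to Satb1 was 1.75-fold lower and ran from 1.10 to 1.22 in the CP CML mice against 0.28 to 0.48 in the BC CML mice. Against the forkhead members the differences were −0.62 (Foxo1) and −0.60 (Foxp1) for Tcf7 and −0.65 and −0.63 for Lef1. Against Bach2, which itself fell, they were −0.40 and −0.44.

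The remaining ratios overlapped between groups. Satb1 rose relative to Bach2 by 0.40 (exact p = 0.00133), to Foxp1 by 0.21 (exact p = 0.00466) and to Foxo1 by 0.19 (exact p = 0.0133). Bach2 fell relative to Foxp1 by 0.19 (exact p = 0.00333) and to Foxo1 by 0.22 (exact p = 0.0246, adjusted p = 0.0284). That last ratio lost its call without BC CML 1, BC CML 2 or BC CML 3, with adjusted p between 0.0556 and 0.0663. Over every choice of 1 mouse left out, its difference stayed between −0.25 and −0.16.

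**Figure D4:**
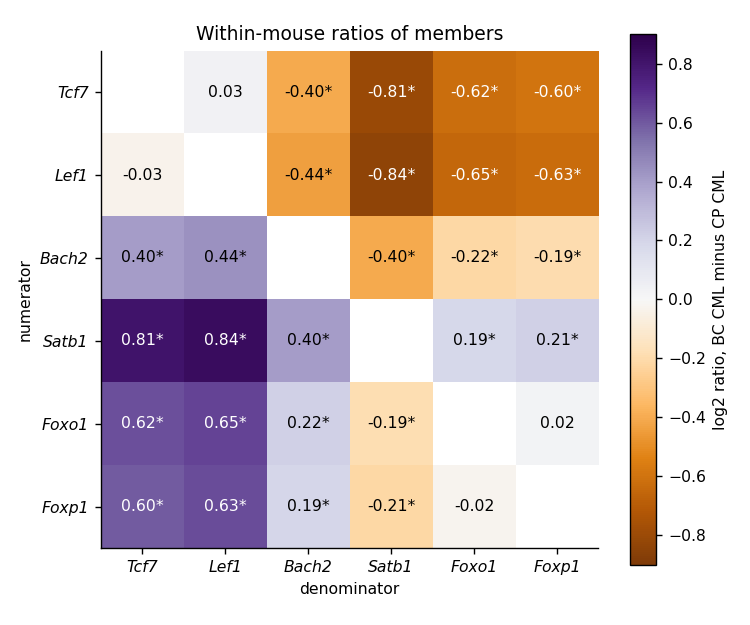
Difference between groups in the within-mouse log2 ratio of the row gene to the column gene (BC CML minus CP CML; color scale in log2 units; * marks an adjusted p below 0.05 over 15 pairs, exact permutation test). The rows of Tcf7 and Lef1 hold differences of −0.84 to −0.40 against the other 4 members, and the difference between the pair itself (0.03) did not pass the test.

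Within the groups, members also varied together from mouse to mouse. BC CML 2 was the lowest BC CML mouse and CP CML 5 the lowest CP CML mouse for Tcf7, Lef1, Bach2, Satb1 and Foxp1. Over the 8 CP CML mice, log2 CPM correlated for Tcf7 with Satb1 (r = 0.93, exact permutation p = 0.00285, adjusted p = 0.0299), for Lef1 with Bach2 (r = 0.94, exact p = 0.000794, adjusted p = 0.0122), for Lef1 with Foxp1 (r = 0.93, exact p = 0.000868, adjusted p = 0.0122) and for Bach2 with Foxp1 (r = 0.93, exact p = 0.00057, adjusted p = 0.0122). Spearman's rho for these pairs was 0.79, 0.81, 0.74 and 0.88 (exact permutation p = 0.0279, 0.0218, 0.0458 and 0.00724), and none passed the adjustment over the 42 relations computed. Without the 2 mice farthest from the median of the first gene, r was 0.74, 0.72, 0.76 and 0.80. Over the 6 BC CML mice the same pairs had r of 0.89, 0.87, 0.93 and 0.83 (exact permutation p = 0.0153, 0.0292, 0.0111 and 0.00972), of which none passed the adjustment. Foxo1 had r between 0.06 and 0.21 with the other members in CP CML and between 0.48 and 0.62 in BC CML. The CP CML values rest on few mice, since without the 2 farthest r of Foxo1 and Foxp1 went from 0.21 to 0.62 and that of Tcf7 and Foxo1 from 0.21 to −0.82. Lef1, Bach2 and Foxp1 are the longest members (8.82, 10.2 and 10.7 kb), and their r with the long-gene score was −0.53, −0.61 and −0.57 in CP CML (exact permutation p = 0.182, 0.0992 and 0.139) and −0.29, −0.40 and −0.08 in BC CML (exact permutation p = 0.561, 0.435 and 0.876). Tcf7, the shortest member (2.75 kb), had an r of −0.54 with the score in CP CML (exact permutation p = 0.159). The part of gene length in these relations was not tested further.

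Among 9072 genes, those closest to each member by the correlation of log2 CPM over the 14 mice, centred within groups, were Il6ra (r = 0.94) and Stat5a (0.91) for Tcf7, Rapgef4 (0.96) and Add3 (0.92) for Lef1, Ambra1 (0.96) and Ccni (0.93) for Bach2, Eif3f (0.94) and Urm1 (0.92) for Satb1, Spsb1 (0.86) and Bcl11b (0.86) for Foxo1, and Ccdc28a (0.94) and Opa1 (0.94) for Foxp1. These values were picked as the highest of many and describe these libraries. Il6ra, an IL-6 receptor chain, and Rapgef4 differed between groups by −1.55 and −3.19 on the log2 scale (adjusted p = 5.0e-11 and 3.8e-11, edgeR). Of these 12 genes, 6 did not pass the test between groups, namely Stat5a, Urm1, Spsb1, Bcl11b, Ccdc28a and Opa1.

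Close relatives of the members moved in both directions. Of the 7 relatives tested, 2 were higher, 3 lower and 2 not called, with a median of 0.06 beside −0.01 for all genes tested. The other 3 of the 10 relatives were too low to be tested. Foxp3, the defining factor of regulatory T cells and a relative of Foxp1, fell furthest. Its level was 84.1 to 103 CPM in CP CML and 25.6 to 36.6 CPM in BC CML, with no overlap (log2 fold change −1.73 ± 0.08, adjusted p = 1.4e-11, edgeR). Foxo4, a paralog of Foxo1, rose by 0.76 ± 0.05 on the log2 scale, with 38.2 to 48.6 CPM in CP CML and 71.6 to 80.6 CPM in BC CML (adjusted p = 4.3e-10, edgeR). Foxo3, the third FOXO gene expressed here, was at 42.1 ± 2.8 and 43.9 ± 3.2 CPM (SD, n = 8 and 6) and was not called (adjusted p = 0.335, edgeR), but was called lower with the T cell marker scaling, at −0.21. Bach1, the paralog of Bach2, fell by 0.25 like Bach2 itself. Of the TCF/LEF paralogs, Tcf7l1 was 1.41 to 3.68 and 1.19 to 1.83 CPM (log2 fold change −0.59, adjusted p = 0.0126, edgeR), and lost its call with the myeloid covariate (−0.43, adjusted p = 0.261). Tcf7l2 was at 0.53 (adjusted p = 0.125, edgeR), and both had levels far below those of Tcf7. Foxp4 was called at 0.19 but not with the myeloid covariate (0.13) or upper-quartile factors (0.16), and changed sign with the T cell marker scaling, to −0.07.

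The receptors and homing genes of naive T cells mostly fell. Of 11 genes, all tested, 8 were lower, 2 higher and 1 not called, with a median of −0.68. Klf2, which encodes a factor that maintains S1pr1, fell by 0.61 on the log2 scale, and was at 213.5 to 245.3 CPM in CP CML and 135.4 to 174.6 CPM in BC CML. Its target S1pr1, the receptor for exit from lymphoid organs, fell by 0.68. Ccr7, the chemokine receptor for entry to lymph nodes, fell by 1.05, and Il7r, the receptor of the survival cytokine IL-7, by 1.00. Il7r was at 959.4 to 1490 CPM in CP CML and 388.4 to 751.3 CPM in BC CML. These 4 genes are textbook targets of the FOXO1 axis, and in all 4 the groups did not overlap (adjusted p between 2.1e-08 and 3.0e-05, edgeR), while Foxo1 transcript itself was not called. Actn1 changed most in the list, at −1.96. Ccr9 and Cd27 rose, by 1.33 and 0.97, also with no overlap.

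The regulators that hand FOXO proteins their signals were split. Of 16 genes of PI3K-AKT signaling and FOXO turnover, 4 were higher, 7 lower and 5 not called (median −0.06). The AKT phosphatases went opposite ways, Phlpp2 up by 0.72 and Phlpp1 down by 0.54. The kinase gene Akt1 averaged 150 and 152 CPM (adjusted p = 0.711, edgeR), and was called lower with the T cell marker scaling, at −0.25. With the T cell marker scaling the list had 2 higher and 12 lower.

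Among partners and targets of TCF-1 and LEF-1, 14 of 16 genes were tested, of which 5 were higher, 7 lower and 2 not called (median −0.04). With the myeloid covariate these were 4 higher and 4 lower. Ctnnb1, the gene of the coactivator β-catenin, was at 231.7 to 269.4 CPM in CP CML and 640.8 to 712.7 CPM in BC CML, a rise of 1.46 ± 0.04 on the log2 scale (adjusted p = 3.6e-15, edgeR). Axin2, the usual reporter of β-catenin activity and a target of TCF and LEF factors, was not among the genes named by the rule but is given as the counterpart. It fell by 1.06, with 61.3 to 72.8 CPM in CP CML, 28.6 to 38.8 CPM in BC CML and no overlap. Of the corepressor genes, Tle1 fell by 1.13, Tle4 by 0.11 and Aes by 0.12. With the myeloid covariate Tle4 (−0.14, adjusted p = 0.0571, edgeR) and Aes (−0.07, adjusted p = 0.412, edgeR) were not called. Tle2 rose by 1.13 at a low level (2.09 and 4.61 CPM on average), and Tle3 was not called. Ctnnbip1, an inhibitor of β-catenin, rose by 1.28 at a low level (1.53 ± 0.28 and 3.69 ± 0.41 CPM, SD, n = 8 and 6). Ccnd1 (cyclin D1) rose by 2.23 from near 1 CPM, with overlap, and lost its call with the myeloid covariate (adjusted p = 0.432). Myc did not pass the test (0.02, adjusted p = 0.889, edgeR).

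Of 10 tested partners and competitors of BACH2, 4 were higher, 4 lower and 2 not called (median −0.11). With the T cell marker scaling 1 was higher and 6 lower. Batf, an AP-1 factor of effector T cells, fell by 0.61, and Mafg, a small MAF partner, rose by 0.63, both with no overlap. Jun rose by 0.47 with overlap. It was not called with the T cell marker scaling (0.20, adjusted p = 0.187, edgeR) or the myeloid covariate (0.59, adjusted p = 0.0863, edgeR).

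Other regulators of quiescence did not lean one way. Of 23 genes, 7 were higher, 6 lower and 10 not called (median −0.04). Runx1 and Klf3 fell by 0.61 and 0.53 with no overlap. Zfp36l2, an RNA-binding factor that limits the response to antigen, rose by 0.73 with overlap. It lost its call with the myeloid covariate (0.61, adjusted p = 0.188, edgeR) and the T cell marker scaling (0.45, adjusted p = 0.0957, edgeR). Under that scaling 16 of the 23 were lower and the other 7 were not called. The inhibitor of the cell cycle Cdkn1b averaged 264 and 350 CPM (log2 fold change 0.41, not called with the T cell marker scaling at 0.14), while 2 of 8 proliferation genes were called, both lower, and Mki67 was not, at 234.5 and 236.8 CPM on average (adjusted p = 0.933, edgeR).

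Factors of effector and memory T cells mostly rose. Of 18 genes, 14 were higher, 2 lower and 2 not called, with a median of 0.50. With the T cell marker scaling these were 9 and 3, and with the myeloid covariate 10 and 2. Eomes rose by 1.73, from 77.6 ± 14.2 CPM (SD, n = 8) to 256.7 ± 25.4 CPM (SD, n = 6). Id2 rose by 1.34, with 127.1 to 154.6 CPM in CP CML and 311.5 to 382.2 CPM in BC CML, and Tbx21 (T-bet) by 1.12, with 24.5 to 44.0 CPM and 72.4 to 96.2 CPM. Zeb2 rose by 1.66 and Bhlhe40 by 1.83. The groups did not overlap for any of these 5. Eomes is also an NK cell gene and is 1 of the 6 genes in the summed NK cell level given above, so that sum is not separate from its rise. The NK genes Ncr1 and Klre1 rose in the same mice, and the part of NK cells in the rises of Eomes, Id2, Tbx21, Zeb2 and Bhlhe40 was not tested. The rise was not shared by Prdm1, which encodes BLIMP-1, the repressor of Tcf7 in terminal effectors: it fell by 0.88, with 16.7 to 24.4 CPM in CP CML and 8.23 to 13.4 CPM in BC CML. Irf4, a factor induced by antigen receptor signals, fell by 0.54.

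**Figure D5:**
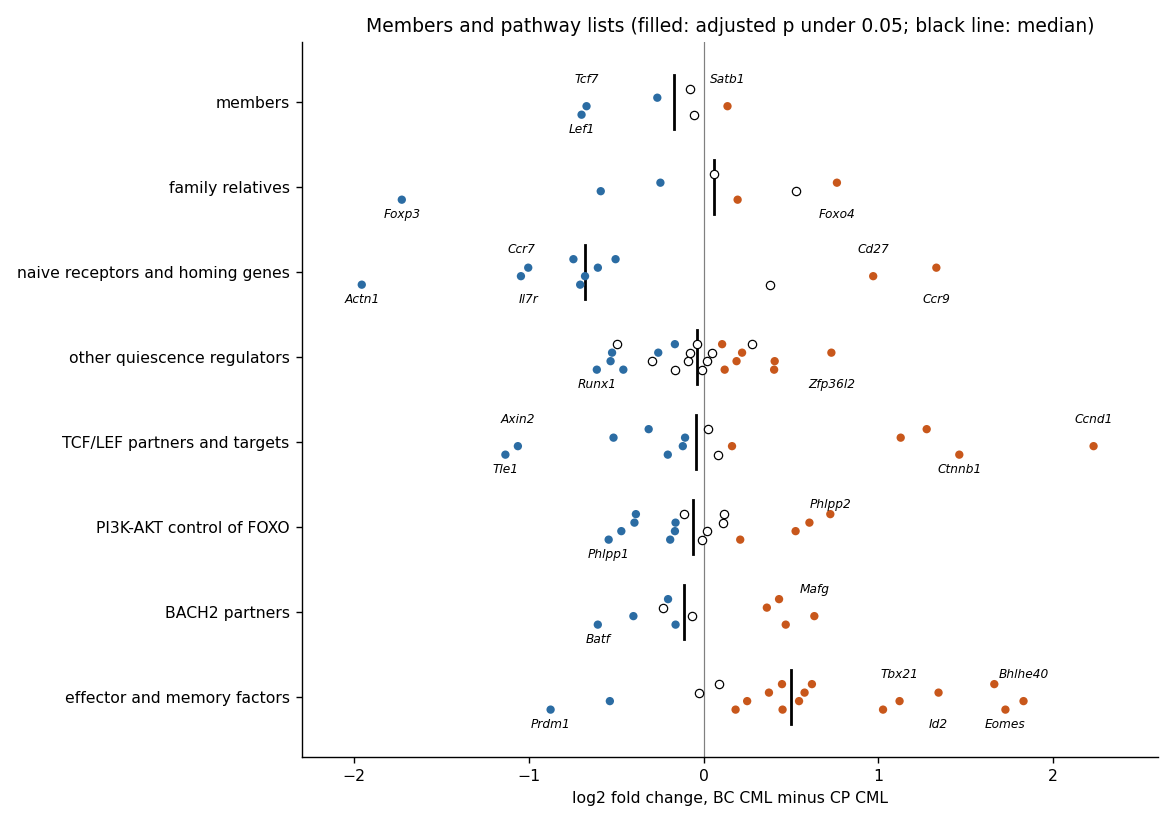
Log2 fold change (x axis, BC CML minus CP CML) of each tested gene of the members and 7 lists of their pathways (filled symbols: adjusted p below 0.05, blue lower and orange higher; black lines: medians). The naive receptor list has its median at −0.68, the effector list at 0.50 and the other 5 lists between −0.11 and 0.06.

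Coreceptor transcripts differed in the same libraries. Cd4 fell by 0.73, with 352.0 to 433.8 CPM in CP CML and 191.2 to 295.2 CPM in BC CML, and Cd8a rose by 0.87, with 611.7 to 760.2 CPM and 1071 to 1478 CPM. The groups did not overlap for either, while Cd8b1 averaged 436 and 457 CPM (adjusted p = 0.352, edgeR) and was called lower with the T cell marker scaling, at −0.20. Of 8 surface genes of activated or memory T cells, 6 were higher and 2 not called (median 0.38), and with the T cell marker scaling 3 were higher and 1 lower. The part of these shifts in the levels of Tcf7, Lef1 and the other members was not tested.

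In the RefSeq promoters (250 bases before to 50 after a gene's start, GRCm38.p6, both strands), 16 promoters belong to the members. None held the TCF/LEF letters CTTTGAT, which occur in 3.73% of all 32851 promoters, or the AP-1 and BACH2 letters TGAGTCA (5.2%). The forkhead letters TGTTTAC (3.65%) occurred in 1 of the 16, a Tcf7 promoter. These are letters in short windows and not sites of binding.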

How the data were processed

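Bulk RNA-seq libraries of T cells sorted from the spleen (8 CP CML and 6 BC CML mice) were analysed, and the other experiments of the study were not analysed here. The authors trimmed reads with Trimmomatic and FASTP, aligned them to mm10 with STAR 2.6.0 and counted them with HTSeq 0.11.1, and they deposited raw counts per gene with gene positions and lengths. The annotation and strand setting are not given in the sources used here, and the library kit selects polyadenylated RNA. The members, lists and tests were chosen with earlier results of these data known.

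Counts were analysed with edgeR 4.0.16 in R 4.3.3 (filterByExpr, TMM, robust quasi-likelihood fit, no covariate, Benjamini-Hochberg over 12248 genes, threshold 0.05), although the study names edgeR's likelihood ratio test. SEs follow from the fold change and the F statistic. Adjusted p-values in the text come from this fit unless a permutation test is named. Lists are described by counts and medians, without a set test. Log2 CPM used a prior count of 2. Ratios of members used reads plus 0.5 and an exact permutation test (Python 3.11.15, scipy 1.17.1). The self-test on simulated counts (11959 genes, 200 changed) recovered 184 with 24 other calls.

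Depth was 15703702 to 19914531 reads per library. The chi-square per degree of freedom between libraries was 2.99 to 20.8 within CP CML and 7.89 to 21.6 within BC CML, so none was counted as a repeat. Named genes were the members, their relatives, set genes of the naive, effector and coreceptor lists, the 3 called genes of largest change in each pathway list and the 2 genes most like each member. Some genes that this rule names are counted in their lists and not reported here. Axin2, Tle1, Tle2, Tle3, Tle4, Aes, Akt1, Myc, Cdkn1b, Mki67, Irf4, Cd27, Thy1, Cd3g, Klra8, Ncr1, Klre1, Klrb1c and Bach2os were named with their values seen. Pdk1 was taken out of the PI3K-AKT list after its value was seen (log2 fold change −1.14), because the mouse gene of that name is a pyruvate dehydrogenase kinase. Ighm, Ighd, Hba-a1 and Hbb-bt were not used here. The settings tried were edgeR's likelihood ratio test, DESeq2 1.42.0, other scalings and filters, a replicate block, myeloid and long-gene covariates and leaving out each mouse. The long-gene covariate, and the list counts with the myeloid covariate or under scalings other than library size, were added after seeing the data. A protein comparison was not analysed here.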

Additional observations from a re-analysis of the deposited data

Results flagged for a closer look

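In 7 of 70 groups of values examined, 1 mouse stood apart from the rest of its group by Dixon's gap test, where chance gives about 1 in 20 groups, or 3.5 here. CP CML 5 had the highest log2 ratio of Satb1 to Bach2, 2.295 against 2.108 for the next CP CML mouse. CP CML 7 had the highest log2 ratio of Satb1 to Foxo1, 1.456 against 1.295. The same mouse had the highest Il7r, 1490 CPM against 1158, and the lowest Tbx21, 24.51 CPM against 34.75. CP CML 8 had the lowest Cd4, 352 CPM against 396.8. BC CML 3 had the highest log2 ratio of Lef1 to Bach2 in its group, 0.658 against 0.4762, and the highest Cd8b1, 550.4 CPM against 455.1. The calls for these ratios held without the mouse concerned.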

How the results depend on the processing

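Tcf7 and Lef1 were called lower under all 11 other settings and without any 1 mouse, at −0.95 to −0.59 and −0.97 to −0.60, and −0.71 to −0.63 and −0.75 to −0.64 without 1 mouse. Bach2 kept its direction, but its call was lost with the replicate block (−0.24, adjusted p = 0.0745) and the long-gene covariate (−0.12, adjusted p = 0.375). It was further from 0, and called, with the T cell marker scaling (−0.54) and the myeloid covariate (−0.36). Without 1 mouse Bach2 was −0.33 to −0.21. Satb1 was not called with upper-quartile factors (0.10, adjusted p = 0.0952), the replicate block (0.14, adjusted p = 0.121) or the myeloid covariate (0.10, adjusted p = 0.37), reversed with the T cell marker scaling (−0.14, adjusted p = 0.0677), and was 0.11 to 0.18 without 1 mouse. Foxo1 and Foxp1 were called with the T cell marker scaling alone (−0.32 and −0.35, adjusted p = 2.1e-05 and 0.00128) and ranged from −0.09 to −0.03 and from −0.12 to −0.05 without 1 mouse. The T cell marker scaling puts the median of all genes at −0.28, since the summed level of its 10 genes was higher in BC CML. Of these genes 5 were called higher (Thy1 and Cd3g by most), 1 lower and 4 not called. The scaling therefore rests in part on genes that themselves changed, and the cause of the other changes was not tested. The count of called genes was 5497 (myeloid covariate) to 9370 (T cell marker scaling), against 7986. The share of higher calls was 49.9%, 23.9% with the T cell marker scaling. In pairing the mice by number, the replicate block left 10 of 13 ratios called, losing Satb1 to Foxo1, Bach2 to Foxo1 and Bach2 to Foxp1. These 3 were at 0.22, −0.17 and −0.19 (adjusted p = 0.0781, 0.216 and 0.0781, sign-flip test). That test leaves out CP CML 7 and CP CML 8, and on 6 pairs its smallest adjusted p was 0.0469, so a lost call need not mean a smaller difference. In the fit of genes with the block, 2 of the 6 members were called, Tcf7 and Lef1. The groups hold different animals, and same-numbered mice did not deviate together (r of deviations from −0.27 to 0.36, over 0.1 in 2 of 6). Without 1 mouse 12 or 13 ratios were called. Each member had at least 2296 reads in every library. Of the list counts not given above, higher calls fell by over 1.5 times for the relatives and the quiescence regulators with upper-quartile factors (to 1 and 4) and the myeloid covariate (to 1 and 3), for the relatives with the T cell marker scaling (to 1), and for PI3K-AKT and the BACH2 partners with the myeloid covariate (to 2 each, the latter with 1 lower).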
